A study of Mus musculus with 17 samples.

Results

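Pcp4, Rgs14, Amigo2, Necab2, Map3k15 and Cacng5 are 6 genes that mark pyramidal neurons of hippocampal field CA2, and they were followed by gene name in polyadenylated RNA from the hippocampus of 17 mice. They are 6 of 55385 genes in the deposited tables, and all 6 were among the 18983 genes with enough reads to test. Pcp4 lies inside the duplicated part of chromosome 16, and the other 5 lie on other chromosomes. The mice were WT (wild-type C57BL/6J, n = 6), Dp16 (n = 6), which carry the chromosome 16 duplication used to model trisomy 21, and Dp16_2xIFNRs (n = 5), whose name gives the duplication with 2 copies of the interferon receptor genes. Ages ran from 17.1 to 18.0 weeks, with 3 females and 3 males in WT, the same in Dp16, and 3 females and 2 males in Dp16_2xIFNRs, and the labels list no treatment. Ifnar1, an interferon receptor gene, was at 39.1 to 48.3 CPM in WT (counts per M counts of the scaled library, M for mega), 61.6 to 68.6 CPM in Dp16 and 42.8 to 48.5 CPM in Dp16_2xIFNRs.

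CA2 is a small pyramidal cell field between CA3 and CA1. Its neurons resist the long-term potentiation that is typical of CA1, are wrapped in perineuronal nets and are needed for social memory. Several CA2 proteins act on calcium signalling: Pcp4 is a small peptide that binds calmodulin, Rgs14 is a scaffold that regulates G proteins and limits CA2 plasticity, and Necab2 is a neuronal calcium-binding protein. Cacng5 is an auxiliary subunit of AMPA receptors, Amigo2 is a cell adhesion protein, and Map3k15 is a stress-activated kinase. None of these genes is restricted to CA2. Pcp4 is also known from thalamus, striatum and cerebellar Purkinje cells, and Rgs14 from CA1.

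The genes lie at these positions (GRCm38, GENCODE M21): Pcp4 (ENSMUSG00000090223.2) at chr16:96467606-96525793 on the plus strand, Rgs14 (ENSMUSG00000052087.14) at chr13:55369732-55384687 on the plus strand, and Amigo2 (ENSMUSG00000048218.6) at chr15:97244125-97247287 on the minus strand. Necab2 (ENSMUSG00000031837.14) lies at chr8:119446719-119472640 on the plus strand, Map3k15 (ENSMUSG00000031303.8) at chrX:159988433-160123351 on the plus strand, and Cacng5 (ENSMUSG00000040373.12) at chr11:107874605-107915055 on the minus strand. Pcp4 overlaps Igsf5 on the same strand, which averaged 0.590 CPM. Map3k15 overlaps Pdha1 on the opposite strand, at 260 CPM, and Amigo2 overlaps Pced1b on the opposite strand, at 4.72 CPM. The strand setting of the counting is not given in the sources used here, so the values of Map3k15 and Amigo2 are less certain than those of the others.

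Libraries held 30.4 to 33.1 M counts, and mice varied with a common biological coefficient of variation of 14.1% in edgeR. Over all tested genes, 0.537% were called in Dp16 against WT (edgeR quasi-likelihood test with genotype and sex, Benjamini-Hochberg adjusted p under 0.05), 0.98% in Dp16_2xIFNRs against WT and 0.0158% in Dp16_2xIFNRs against Dp16. 1 library stood apart in genes that matter here, WT replicate 4. It had the highest level of all 17 libraries in 5 of the 8 tested genes of a list of thalamus and habenula markers, with a mean of 4.41 log2 CPM over the list against 2.84 to 3.50 in the other 16. The summed level of the list was 109 to 394 CPM in WT, with this library the highest, 126 to 158 CPM in Dp16 and 117 to 134 CPM in Dp16_2xIFNRs. Over the other lists, this library was the highest of 17 in CA3 markers (mean 5.17 log2 CPM against 4.83 to 5.10). It was also the highest in the 6 markers (5.53 against 5.02 to 5.45) and in their relatives (5.32 against 5.03 to 5.29). It was the lowest in CA1 markers (5.91 against 6.28 to 6.74) and in calmodulin and its binding partners (9.16 against 9.27 to 9.54). The same held for G protein and MAP kinase partners of Rgs14 (7.30 against 7.34 to 7.55). In 12 other genes enriched in CA2 it was at 4.34, near the low end of the other 16, which lay between 4.34 and 4.60. The fold changes of the 6 markers and the counts of the lists were therefore also computed without this library. In 3 other libraries, 1 per genotype, choroid plexus markers were far lower than in the rest (mean log2 CPM 0.741 to 1.41, against 5.12 to 6.32).

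All 6 genes were detected in every library, and their levels per length ranged widely. Pcp4 was the most abundant, at 211 ± 56.9 reads per kilobase and per M reads (RPKM; mean ± SD, n = 17 mice). Necab2 was at 43.3 ± 3.39 RPKM and Rgs14 at 37.5 ± 3.71 RPKM. Necab2 was above Rgs14 in 15 of 17 mice and their ranges overlapped, while Pcp4 was above both in every mouse with no overlap. The adhesion gene Amigo2 was at 7.31 ± 1.14 RPKM, Cacng5 at 3.64 ± 1.34 RPKM and Map3k15 at 2.27 ± 0.392 RPKM. That order held in all 17 mice, although the ranges of neighbouring genes overlapped between mice. Among the 101 genes of the duplicated segment with at least 1 CPM, Pcp4 was the 3rd most abundant per length.

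None of the 6 genes was called in any genotype comparison with all libraries. At an unadjusted p under 0.05, 1 of 6 (Rgs14) differed in Dp16 against WT, 0 of 6 in Dp16_2xIFNRs against WT and 0 of 6 in Dp16_2xIFNRs against Dp16. Of all 18983 tested genes, 1819 (9.58%), 3235 (17%) and 1986 were under that unadjusted p in the 3 comparisons. The median log2 fold change of the 6 genes was 0.04, 0.04 and -0.09 in these comparisons, beside -0.0059, 0.0043 and -0.0073 over all tested genes. With WT replicate 4 left out, 1 of 6 was called in Dp16 against WT. This was Pcp4, whose highest value of all mice came from the library left out. The share of all tested genes called in that fit was 0.578%. With the library left out, 0 of 6 were called in Dp16_2xIFNRs against WT (2.3% of all tested genes) and 0 of 6 in Dp16_2xIFNRs against Dp16 (0.0159%). None of the 6 was called lower in any of these fits. None of the 6 genes is restricted to CA2. In this bulk tissue, the number of CA2 cells, RNA per CA2 cell and RNA from other cells could not be told apart.

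**Figure D1:**
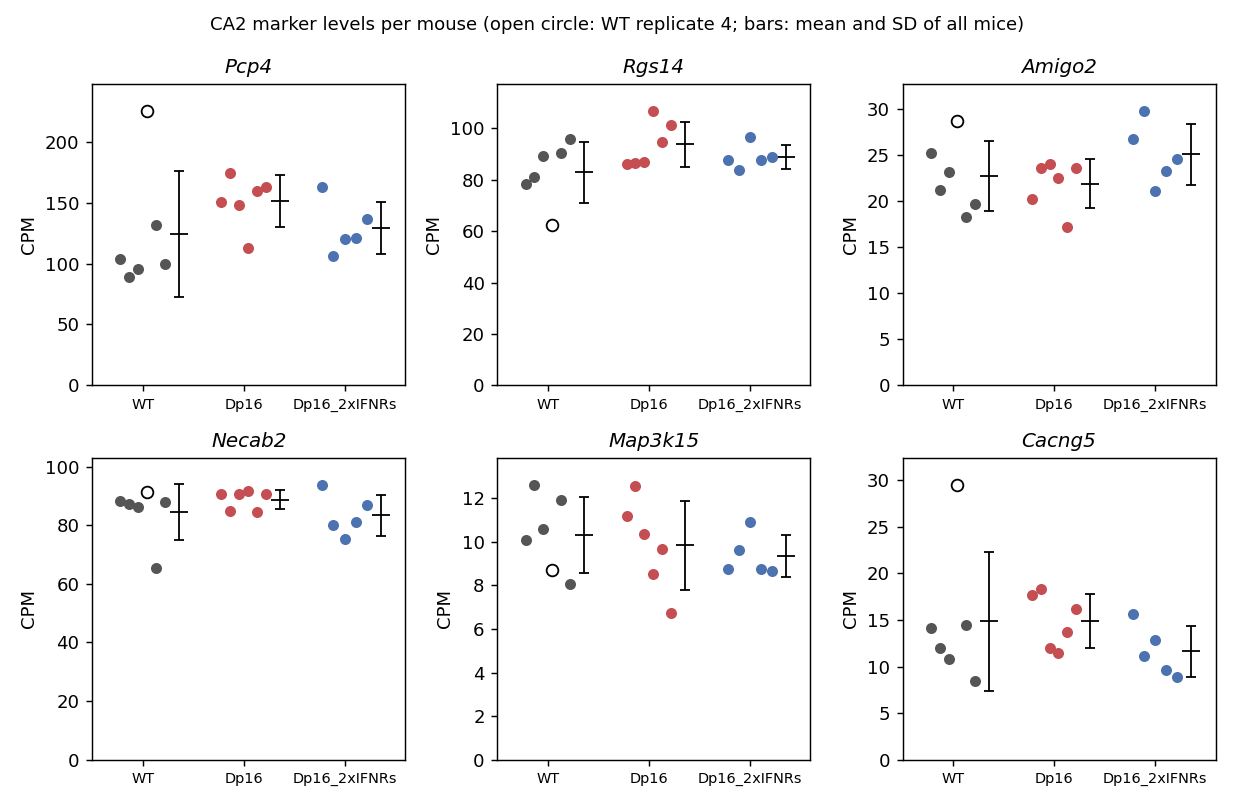
Level of each CA2 marker (CPM, linear axis from 0) in each of 17 mice by genotype. Points are mice, the open circle is WT replicate 4, and bars give the mean and SD of all mice of a genotype. WT replicate 4 is the highest of all mice in Pcp4 (226 CPM) and Cacng5 (29.4 CPM) and the lowest in Rgs14 (62.6 CPM).

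Pcp4, the calmodulin-binding gene with the extra copy, was between 88.7 and 226 CPM in WT (median 102), between 113 and 175 CPM in Dp16 (median 155), and at 163, 106, 120.4, 121 and 137 CPM in the 5 Dp16_2xIFNRs mice. The groups overlapped, and the highest of all values came from a WT mouse, replicate 4. The other 5 WT mice were at 88.7 to 131 CPM, and 5 of 6 Dp16 mice were above all of these. The means were 124 ± 51.8 CPM in WT (SD, n = 6), 152 ± 21.2 CPM in Dp16 (n = 6) and 130 ± 21.5 CPM in Dp16_2xIFNRs (n = 5). The coefficient of variation was 41.7% in WT, 14.0% in Dp16 and 16.6% in Dp16_2xIFNRs.

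With all libraries, the log2 fold change of Pcp4 in Dp16 against WT was 0.31 ± 0.18 (SE), with a 95% interval of -0.08 to 0.69 and an edgeR adjusted p of 0.627. The exact two-sided permutation test of log2 CPM over mice gave p = 0.143 (adjusted over the 18 gene comparisons 0.429). In Dp16_2xIFNRs against WT it was 0.10 ± 0.20 (interval -0.31 to 0.51, edgeR adjusted p = 0.840, exact permutation p = 0.634). Both intervals held 0, and the interval for Dp16 also held the value of 0.58 that 3 copies against 2 would give if RNA followed gene copy. In Dp16_2xIFNRs against Dp16 the log2 fold change was -0.21 ± 0.19 (interval -0.62 to 0.19, edgeR adjusted p = 0.691), so no difference between the duplication groups was shown for Pcp4.

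Without WT replicate 4, Pcp4 rose in Dp16 by a log2 fold change of 0.55 ± 0.12, or 1.46-fold (95% interval of the log2 value 0.29 to 0.80, edgeR adjusted p = 0.0475). The WT mean was then 104 ± 16.4 CPM (n = 5), and the exact permutation test of Dp16 (n = 6) against these WT mice gave p = 0.00649 (adjusted over the 12 such tests against WT 0.0779). In Dp16_2xIFNRs the same fit gave 0.32 ± 0.13 (interval 0.06 to 0.58, edgeR adjusted p = 0.152, exact permutation p = 0.0635), which did not pass. The edgeR adjusted p of the Dp16 call lies close to the threshold, and WT replicate 4 was the only 1 of the 17 libraries whose removal brought it under 0.05. This library held the highest Pcp4 of all mice, and it was singled out after the values were seen. Leaving out the highest WT value raises the difference by construction. The p-values without this library are therefore descriptive and do not stand as tests set in advance. A fit on all libraries with the mean level of the thalamus and habenula list as a covariate gave values of the same size: 0.55 ± 0.10 in Dp16 (edgeR adjusted p = 0.00930, where 0.579% of all tested genes were called) and 0.34 ± 0.10 in Dp16_2xIFNRs (edgeR adjusted p = 0.0956, where 1.78% were called). That covariate was at 4.41 in WT replicate 4 and at 2.84 to 3.50 in the other 16 libraries. The fit therefore leans on the same library and is not independent of leaving it out.

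**Figure D2:**
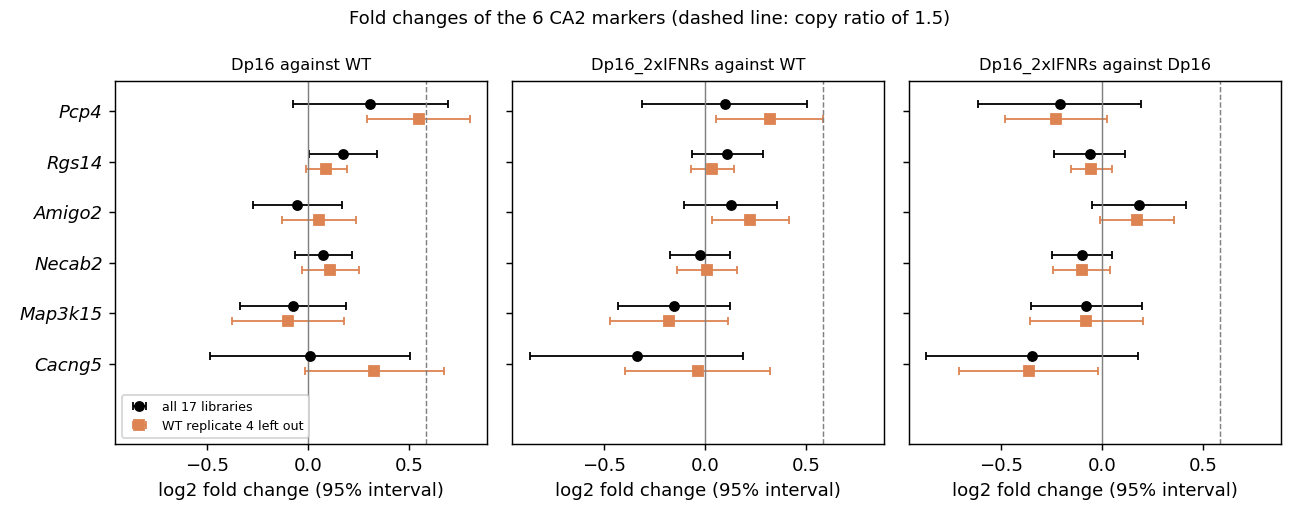
Log2 fold changes with 95% intervals for the 6 CA2 markers in the 3 genotype comparisons, with all 17 libraries (circles) and without WT replicate 4 (squares). The dashed line marks the log2 of 1.5. For Pcp4 in Dp16 against WT the value is 0.31 with all libraries and 0.55 without WT replicate 4.

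Pcp4 was set against the other genes of the segment, which carry the same extra copy in Dp16. In Dp16_2xIFNRs the interferon receptor genes are at 2 copies by the name of the group. They were kept among the segment genes, so the segment values of Dp16_2xIFNRs include them. The 101 segment genes with at least 1 CPM had a median log2 fold change of 0.56 in Dp16 and 0.55 in Dp16_2xIFNRs against WT, and 50.8% and 54.1% of the 122 tested segment genes were called. With all libraries Pcp4 ranked 91st of 101 from the highest in Dp16 and 95th in Dp16_2xIFNRs. Without WT replicate 4 it ranked 54th in Dp16 and 91st in Dp16_2xIFNRs. Its place in Dp16 thus lay near the middle of the segment when that library was left out, and near the low end in Dp16_2xIFNRs with and without it.

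A test of Pcp4 against a fold of 1.5 asked whether it departed from the copy ratio. Pcp4 differed from that ratio by -0.28 ± 0.18 on the log2 scale in Dp16 (edgeR adjusted p over the 122 segment genes = 0.520) and by -0.49 ± 0.20 in Dp16_2xIFNRs (edgeR adjusted p = 0.147). Neither passed after adjustment. The 95% interval of the difference was -0.66 to 0.11 in Dp16. In Dp16_2xIFNRs it was -0.90 to -0.08, wholly below the copy ratio (edgeR unadjusted p = 0.0228). In the same set 2 of 122 segment genes departed in Dp16 and 13 of 122 in Dp16_2xIFNRs. The set includes the interferon receptor genes, which are at 2 copies in Dp16_2xIFNRs by its name. The count of 13 is therefore not a plain background for Pcp4. Without WT replicate 4 the differences were -0.04 (interval -0.29 to 0.21) in Dp16 and -0.27 (interval -0.53 to -0.0028, edgeR adjusted p = 0.188) in Dp16_2xIFNRs.

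The genotype labels were also read from each mouse. The median log2 ratio of the segment genes to the WT mean was between -0.03 and 0.03 in the 6 WT mice, between 0.55 and 0.58 in Dp16 and between 0.53 and 0.56 in Dp16_2xIFNRs. WT replicate 4 was at 0.0043, so its segment dosage matched its WT label while its Pcp4 was 0.94 above the WT mean. The log2 ratio of Pcp4 to the WT mean was between -0.05 and 0.57 in the Dp16 mice and between -0.14 and 0.47 in the Dp16_2xIFNRs mice. Pcp4 is a single gene and the segment value is a median over many genes, so their spreads between mice are not compared here.

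**Figure D3:**
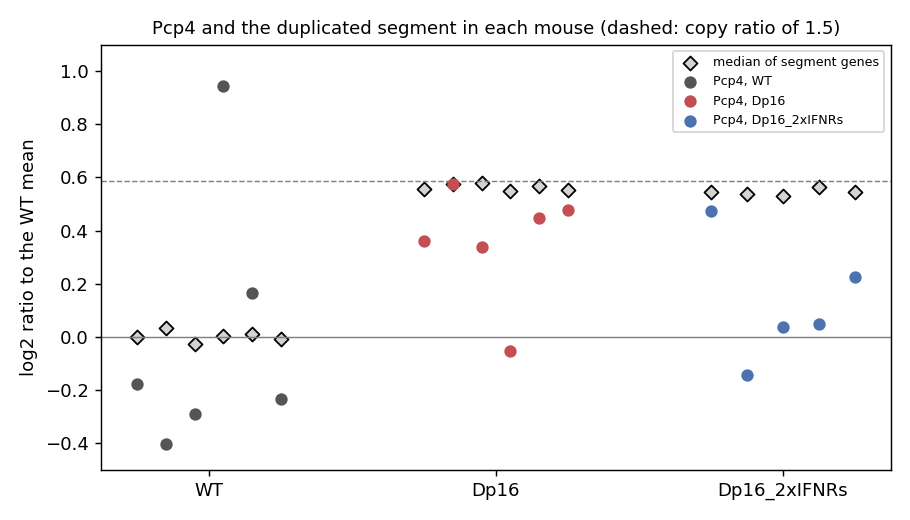
Log2 ratio to the WT mean for Pcp4 (circles) and for the median of the segment genes (diamonds) in each mouse, with the log2 of 1.5 dashed. Each diamond is a median over many genes and each circle a single gene. The segment medians lie between 0.53 and 0.58 in the duplication mice, and Pcp4 is highest in WT replicate 4, at 0.94.

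Of 17 genes listed as neighbours of Pcp4 in the segment, 14 were tested, and 7 rose in Dp16 and 7 in Dp16_2xIFNRs against WT. These counts were 7 and 9 without WT replicate 4. Dscam, a neuronal adhesion gene beside Pcp4, was at 58.2 to 74.9 CPM in WT, 99.0 to 118 CPM in Dp16 and 89.5 to 108 CPM in Dp16_2xIFNRs, with no overlap between WT and either duplication group. Hmgn1, a nucleosome-binding protein gene, was at 58.5 to 71.6 CPM in WT, 85.9 to 102 CPM in Dp16 and 91.5 to 103 CPM in Dp16_2xIFNRs. The log2 fold changes in Dp16 were 0.69 for Dscam and 0.53 for Hmgn1. Both separated WT from the duplication groups, and Pcp4 did not, with or without WT replicate 4. Both were among the 7 neighbours called in Dp16 in the fit without that library. The other tested neighbours were not called there, so these 2 genes do not stand for all neighbours of Pcp4. With all libraries, 50.8% of all tested segment genes were called in Dp16 and 54.1% in Dp16_2xIFNRs against WT.

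Rgs14, the G protein regulator that limits plasticity in CA2, was between 62.6 and 95.9 CPM in WT (median 85.2), between 86.3 and 107 CPM in Dp16 (median 90.9), and at 87.8, 83.9, 96.8, 87.6 and 88.9 CPM in Dp16_2xIFNRs. All groups overlapped, and WT replicate 4 was the lowest of the 17 mice. The log2 fold change was 0.17 ± 0.08 in Dp16 against WT, with 6 of 6 Dp16 mice above the WT mean (unadjusted p = 0.0435, edgeR adjusted p = 0.508), and 0.11 ± 0.08 in Dp16_2xIFNRs against WT (edgeR adjusted p = 0.523). Without WT replicate 4 these log2 fold changes were 0.09 (edgeR adjusted p = 0.613) and 0.03 (0.743). The WT mean was then 87.1 CPM. Dp16 replicates 1 and 2 were below it, at 86.3 and 86.4 CPM, and replicate 3 was level with it at 87.1 CPM.

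Necab2, the EF-hand calcium-binding protein gene, was between 65.2 and 91.4 CPM in WT (median 87.6), between 84.4 and 91.5 CPM in Dp16 (median 90.5), and at 93.5, 79.9, 75.3, 81.1 and 86.9 CPM in Dp16_2xIFNRs. It was the steadiest of the 6 in Dp16, with a coefficient of variation of 3.66%. Its log2 fold changes were 0.07 ± 0.07 in Dp16 and -0.03 ± 0.07 in Dp16_2xIFNRs against WT (edgeR adjusted p 0.776 and 0.888), with upper interval bounds of 0.21 and 0.12. They were 0.11 (edgeR adjusted p = 0.668) and 0.0079 (0.965) without WT replicate 4.

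Cacng5, the AMPA receptor auxiliary subunit, followed WT replicate 4 as Pcp4 did. It was between 8.44 and 29.4 CPM in WT (median 13.01), between 11.5 and 18.3 CPM in Dp16 (median 14.9), and at 15.7, 11.1, 12.9, 9.63 and 8.92 CPM in Dp16_2xIFNRs. The highest value was again WT replicate 4, and the next WT mouse was at 14.5 CPM. Its log2 fold change was 0.01 ± 0.24 in Dp16 against WT (edgeR adjusted p = 0.995) and -0.34 ± 0.25 in Dp16_2xIFNRs against WT (edgeR adjusted p = 0.512). Without that library the values were 0.33 (edgeR adjusted p = 0.568) and -0.04 (0.928), so the library moved both values and neither passed with or without it. In Dp16_2xIFNRs against Dp16 it was -0.35 ± 0.25 (edgeR adjusted p = 0.607).

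Amigo2, the adhesion gene, was between 18.3 and 28.7 CPM in WT, between 17.2 and 24.04 CPM in Dp16, and at 26.7, 29.8, 21.1, 23.3 and 24.6 CPM in Dp16_2xIFNRs. Its log2 fold changes against WT were -0.05 ± 0.11 in Dp16 and 0.13 ± 0.11 in Dp16_2xIFNRs (edgeR adjusted p 0.904 and 0.593), and 0.05 and 0.22 without WT replicate 4 (edgeR adjusted p 0.914 and 0.163). Map3k15, the X-linked kinase gene, was between 8.06 and 12.6 CPM in WT, between 6.73 and 12.6 CPM in Dp16, and at 8.73, 9.61, 10.9, 8.77 and 8.66 CPM in Dp16_2xIFNRs. Its log2 fold changes against WT were -0.08 ± 0.13 and -0.15 ± 0.13 (edgeR adjusted p 0.892 and 0.583), and -0.10 and -0.18 without WT replicate 4 (edgeR adjusted p 0.882 and 0.481). The groups of both genes overlapped throughout. Over the 5 markers outside the segment, 0 were called in each comparison under every alternative fit that was run, DESeq2 and limma among them.

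Because Pcp4 carries an extra copy and the other 5 do not, its level was also taken relative to theirs within each mouse. The log2 CPM of Pcp4 minus the mean log2 CPM of the other 5 genes was between 1.58 and 2.75 in WT (median 1.86), between 1.94 and 2.49 in Dp16 (median 2.35) and between 1.86 and 2.37 in Dp16_2xIFNRs (median 2.17). The highest WT value was that of replicate 4, and the other 5 WT mice were at 1.58 to 2.20. With the level of the other 5 markers as a covariate, the log2 fold change of Pcp4 against WT was 0.24 in Dp16 and 0.24 in Dp16_2xIFNRs, neither of which passed. The mean log2 CPM of the other 5 genes itself was 4.69 to 5.07 in WT, 4.83 to 5.05 in Dp16 and 4.75 to 4.97 in Dp16_2xIFNRs, so the mean level of these CA2 markers outside the segment overlapped between all genotypes.

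Sex did not separate the 6 genes. None was called in females against males, where 0.0685% of all tested genes were, and none reached an unadjusted p of 0.05. X-linked Map3k15 had the largest log2 difference, 0.20 ± 0.11 in females minus males (10.48 and 9.17 CPM on average, edgeR adjusted p = 1.00).

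WT replicate 4 differed from the other 16 libraries in named genes of several kinds. Prkcd, a kinase gene abundant in thalamic neurons, was at 173 CPM in it and 13.9 to 37.2 CPM elsewhere. Tcf7l2, a transcription factor of thalamic neurons, was at 48.2 CPM against 3.52 to 10.4 CPM. Gbx2, which is needed for thalamic development, had 125 counts in it and 0 to 7 counts elsewhere. Lef1, Ramp3 and Calb2 were also highest there, at 19.5, 25.7 and 86.1 CPM. Habenula genes of the same list were not higher there: Tac2 was at its lowest of 17 libraries, and Gng8, Nwd2 and Pou4f1 lay within the range of the others. Pcp4l1, the closest relative of Pcp4, was highest in this library too, at 133 CPM against 55.1 to 101 CPM, while the mean of 6 CA1 markers was lowest, at 5.91 log2 CPM against 6.28 to 6.74. The part of these genes in the Pcp4 and Cacng5 values of this library was not tested beyond the fits without the library and with the list as a covariate.

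**Figure D4:**
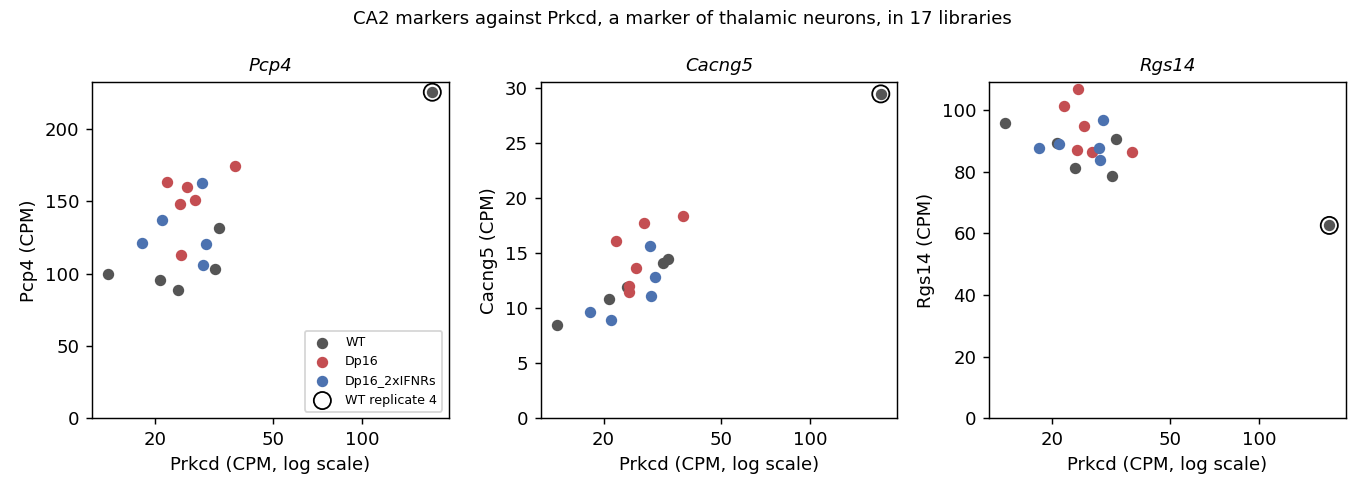
Pcp4, Cacng5 and Rgs14 (CPM, linear axis) against Prkcd (CPM, log axis) in 17 libraries, coloured by genotype, with WT replicate 4 ringed. That library is at 173 CPM of Prkcd, with the highest Pcp4 and Cacng5 and the lowest Rgs14. The other 16 lie between 13.9 and 37.2 CPM of Prkcd.

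Whether the 6 genes moved together between mice was asked within genotype, from log2 CPM after genotype and sex were removed, over the 15 pairs of the 6 genes (17 mice, permutation tests within genotype, Benjamini-Hochberg over 15 pairs). Pcp4 and Cacng5 had a Pearson r of 0.826 (permutation p = 0.00141, adjusted 0.0106) and a Spearman rho of 0.686 (permutation p = 0.00468, adjusted 0.0351). Without the 2 mice farthest on Cacng5, WT replicates 4 and 6, r was 0.638 (adjusted permutation p = 0.132), and without WT replicate 4 alone it was 0.575 (adjusted permutation p = 0.173). That relation therefore rested in part on this library. Pcp4 and Rgs14 had r = -0.753 (adjusted permutation p = 0.0889) and rho = -0.485 (adjusted permutation p = 0.190), and r was -0.192 without WT replicate 4. The relations of Pcp4 with Amigo2, Necab2 and Map3k15 did not pass (r = 0.408, 0.162 and -0.09).

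The other pair past the threshold was Necab2 and Map3k15, which ran in opposite directions with r = -0.734 (permutation p = 0.00027, adjusted 0.00405) and rho = -0.814 (adjusted permutation p = 0.0036). It held without the 2 mice farthest on Map3k15 (r = -0.778, adjusted permutation p = 0.0144) and without WT replicate 4 (r = -0.743, adjusted permutation p = 0.0112). Within genotypes alone, with sex not removed, r was -0.454 (adjusted permutation p = 0.126). Without WT replicate 4, no pair of the 15 had a positive relation past the threshold.

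The genes whose levels ran most like each marker were ranked by Pearson r over 13642 genes of at least 1 CPM, as a description. For Pcp4 they were Lhfp (r = 0.940), Nexn (0.919) and Plcb4 (0.909) over 17 mice, and Dpm3 (0.937), Nrtn (0.921) and Cox7a2 (0.904) over the 16 mice without WT replicate 4. The 3 leading genes of Pcp4 were thus all replaced when 1 library was left out. For Rgs14 they were Chrm1 (0.966), Fam131a (0.949) and Ddn (0.947), and for Cacng5 they were Gpr153 (0.914), Jam3 (0.907) and Prkcd (0.901). For Map3k15, Kif27 (0.902) and Dsg2 (0.882) were among the leading 3 with all mice and also without WT replicate 4. Amigo2 was led by Hip1 (0.852) and Necab2 by Fstl1 (0.882). Without WT replicate 4 the 3 leading genes of Rgs14, Cacng5, Amigo2 and Necab2 were all replaced as well, with Nr2c2ap first for Rgs14 (0.923), Tmed10 for Cacng5 (0.908), Fbxo10 for Amigo2 (0.877) and Arnt2 for Necab2 (0.934).

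Other genes known to be enriched in CA2 gave no call. Of 12 such genes tested, 0 were called in any genotype comparison, and at an unadjusted p under 0.05 the counts were 2 higher in Dp16 against WT, 3 higher and 1 lower in Dp16_2xIFNRs against WT, and 0 in Dp16_2xIFNRs against Dp16. Of all 18983 tested genes, 1819 (9.58%), 3235 (17%) and 1986 were under that unadjusted p in either direction. The median log2 fold changes of the 12 genes were 0.02, 0.09 and -0.03. With WT replicate 4 left out, 0 of the 12 were called and the medians were 0.01, 0.07 and -0.02. Fgf2, a growth factor gene, was at 8.06 to 10.9 CPM in WT, 9.91 to 12.4 CPM in Dp16 and 9.79 to 11.3 CPM in Dp16_2xIFNRs (log2 fold change 0.25 in Dp16, edgeR adjusted p = 0.203). Ptpn5, a brain tyrosine phosphatase gene, had -0.09 and -0.15 in Dp16 and Dp16_2xIFNRs against WT, and the adenosine receptor gene Adora1 had 0.10 and 0.03. Avpr1b, the vasopressin receptor through which CA2 acts in social behaviour, averaged 0.534 CPM, and its values of -0.01 and 0.48 rest on few reads.

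Among 14 relatives of the 6 genes, 2 fell in Dp16_2xIFNRs against WT, where 0.98% of all tested genes were called (2.3% without WT replicate 4), and 0 were called in the other genotype comparisons. Cacng7, an AMPA receptor auxiliary subunit like Cacng5, was at 134 to 156 CPM in WT, 116 to 135 CPM in Dp16, and 117 to 125 CPM in Dp16_2xIFNRs. Its log2 fold change in Dp16_2xIFNRs was -0.22 (edgeR adjusted p = 0.0233), with no overlap with WT. Necab3, a relative of Necab2, was at 17.5 to 24.2 CPM in WT, 15.5 to 20.01 CPM in Dp16 and 12.3 to 17.3 CPM in Dp16_2xIFNRs, a log2 fold change of -0.46 in Dp16_2xIFNRs (edgeR adjusted p = 0.0368). Against Dp16, Cacng7 had -0.08 and Necab3 -0.11 in Dp16_2xIFNRs (edgeR adjusted p 0.548 and 0.705), so a difference between the duplication groups was not shown for either. Both stayed called without WT replicate 4. Pcp4l1 had -0.33 in Dp16 and -0.37 in Dp16_2xIFNRs against WT, neither called. These values include WT replicate 4, the highest of all libraries in Pcp4l1 at 133 CPM. The 3 libraries low in choroid plexus markers were the lowest of their genotypes in Pcp4l1. They were at 55.3 CPM in WT, 57.2 CPM in Dp16 and 55.1 CPM in Dp16_2xIFNRs.

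Genes that work with the CA2 proteins were not called in any genotype comparison, where 0.537%, 0.98% and 0.0158% of all tested genes were. They were 14 genes of calmodulin and its binding partners, 4 AMPA receptor subunits, 10 G protein and MAP kinase partners of Rgs14, and 8 perineuronal net genes. Their median log2 fold changes in Dp16 against WT were 0.04, 0.07, 0.08 and 0.02. At an unadjusted p under 0.05 in that comparison, 2 of 14, 0 of 4, 3 of 10 and 2 of 8 were higher. 1 perineuronal net gene was lower. In Dp16_2xIFNRs against WT, 2 of 14, 2 of 4, 0 of 10 and 2 of 8 were higher. 1 gene of the calmodulin list and 1 Rgs14 partner were lower there. Of all tested genes, 9.58% and 17% were under that p in either direction. The lists are small, and their shares were not tested against these. In the fit without WT replicate 4, 0 genes of these lists were called. The medians in Dp16 against WT were then -0.0050, 0.06, 0.05 and 0.03. Gria2 had the largest value of the AMPA subunits, 0.22 in Dp16_2xIFNRs against WT (edgeR adjusted p = 0.161). No gene of the lists for CA1 (6 genes), CA3 (6 genes) or dentate granule cells (7 genes) was called either, and their mean log2 CPM overlapped between genotypes.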

How the data were processed

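The authors deposited raw counts per gene and RPKM for 17 hippocampal libraries, 1 per mouse. The submitters' processing notes name HISAT2 2.1.0, HTSeq 0.6.1, SAMtools 1.5, FastQC 0.11.5, bcl2fastq and build GRCm38. Counts were fitted here in R 4.3.3 with edgeR 4.0.16 (filterByExpr with a minimum count of 10, TMM scaling, quasi-likelihood model of genotype and sex on all libraries, 13 residual degrees of freedom, Benjamini-Hochberg over 18983 genes, threshold 0.05). CPM used TMM-scaled library sizes and log2 CPM a prior count of 2. The deposited RPKM were used for levels between genes and, as log2(RPKM + 0.1), in an alternative. Permutation tests over single genes were exact and two-sided, and those of correlations used 100000 resamples. The fit was tested on simulated data. The duplicated segment was taken as Lipi to Zbtb21 (chr16:75540514-97962622, GRCm38). The members and lists were chosen with earlier results of these data known. Genes named are the 6 markers in every comparison, called genes of each list or its 3 most abundant, any gene of the CA2 and relatives lists, and the 3 genes most like each marker. Ifnar1 and the genes that describe WT replicate 4, beyond that rule, were picked after their values were seen. Alternatives were other scalings, filters, covariates, limma 3.58.1, DESeq2 1.42.0 and each library left out. WT replicate 4 was left out of the relations, exact tests and lists after seeing the data. Intervals from the fit cover the spread between mice and counting error, and the reads carry no molecular identifiers.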

Additional observations from a re-analysis of the deposited data

Results flagged for a closer look

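In 27 checks of the highest and lowest mouse of a genotype for the 6 genes and for marker lists, 5 met the criterion of a mouse far from the rest of its group, where chance gives about 1 in 20. WT replicate 4 did not meet this criterion in any check, those of Pcp4, Cacng5 and the thalamus and habenula list among them. Pcp4 in Dp16 replicate 4 was the lowest of 6 Dp16 mice, at 6.82 log2 CPM, with the others at 7.21 to 7.45. Necab2 in WT replicate 5 was the lowest of 6 WT mice, at 6.03 log2 CPM, with the others at 6.43 to 6.51. The mean log2 CPM of the choroid plexus markers was 0.770 in WT replicate 6, 0.741 in Dp16 replicate 6 and 1.41 in Dp16_2xIFNRs replicate 5, each the lowest of its group.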

How the results depend on the processing

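The 18 values of the 6 genes were set beside those of 19 other settings and of 17 fits with a library left out. 1 of these settings changed only the threshold, to 0.1. They gave 632 gene values, which come from the same mice and are not independent. Of these values, 612 kept direction and side of the threshold, 18 changed sign and 2 passed the threshold. Both of the latter were Pcp4 in Dp16 against WT, 0.55 without WT replicate 4 and 0.55 with the thalamus and habenula level as a covariate. WT replicate 4 lies far above the other libraries in that covariate, so these 2 results are not independent of each other. Leaving out each library in turn gave 0.23 to 0.55 for Pcp4 in Dp16 and -0.012 to 0.32 in Dp16_2xIFNRs against WT, which was -0.0032 without the 3 libraries low in choroid plexus markers. Other leave-one-out ranges also held both signs. In Dp16 against WT they were -0.11 to 0.33 for Cacng5, -0.10 to 0.052 for Amigo2 and -0.14 to 0.0046 for Map3k15. In Dp16_2xIFNRs against WT the range was -0.082 to 0.0079 for Necab2. Cacng5 in Dp16 was -0.00019 without a covariate, -0.012 with age and -0.13 without the 3 low choroid plexus libraries. With the thalamus and habenula covariate Amigo2 in Dp16 was 0.037 and Cacng5 in Dp16_2xIFNRs 0.0090. Pcp4 against the copy ratio in Dp16_2xIFNRs passed without a filter on low counts (-0.49, edgeR adjusted p = 0.0219). The exact permutation test of Pcp4 in Dp16 without WT replicate 4 (difference 0.55) gave p = 0.00649, or 0.0779 adjusted over 12 tests. That p is descriptive, since the library left out held the highest Pcp4 of all mice. The r of Pcp4 with Cacng5 was 0.638 without the 2 farthest mice and 0.575 without WT replicate 4. Its r with Amigo2 was -0.019 and -0.28, with Necab2 -0.031 and -0.28, and with Map3k15 0.0076 on log2 RPKM and 0.055 without WT replicate 4. The cause of these changes was not tested.

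Counts over all genes moved more. In Dp16_2xIFNRs against WT, 186 genes became 474 at a threshold of 0.1, 416 without a filter, 315 with a choroid plexus covariate, 337 with the thalamus and habenula covariate, 114 with only the 2 groups, 632 with DESeq2 and 101 to 517 with a library left out. In Dp16 against WT, DESeq2 called 214 in place of 102, and in Dp16_2xIFNRs against Dp16, 3 became 14 without a filter and 6 with DESeq2. Deviations of samples with the same replicate number correlated at a mean of -0.016 over 16 pairs. With a replicate block Pcp4 was 0.35, 0.08 and -0.26 in the 3 comparisons, and no call of the 6 genes changed. The second part of the library identifier, whose meaning the labels do not give, was shared by 5 pairs of mice of different genotype. Their deviations correlated at -0.39 to 0.27, and 1 of 5 was over 0.1 (WT replicate 4 with Dp16_2xIFNRs replicate 3). With that identifier as a random block in limma, added after seeing the data, Pcp4 was 0.36, 0.14 and -0.22, and no call of the 6 genes changed.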
